A study of Mus musculus with 27 samples.

Results

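The hair shaft keratins are the keratins that fill the cells of the growing hair. They were taken here by symbol, as the rows of the deposited tables that carry the names of 6 type I keratins (Krt31, Krt33a, Krt33b, Krt34, Krt35 and Krt36) and of 3 type II keratins (Krt81, Krt83 and Krt86). These 9 genes, of 10 named by the rule, were followed among 32285 genes of the single-cell matrices and 51906 gene symbols of the RNA-seq table. The study asked how retinoic acid signaling sets the fate of hair follicle stem cells (HFSCs), and 27 samples were listed for it. Back skin of 2 wild-type mice in full anagen (AnaVI, postnatal day 32) gave 2 single-cell matrices. The skin cells had been sorted to be negative for CD45, CD31, CD140a and CD117, which mark immune, endothelial, dermal and melanocyte lineage cells. CD34+ HFSCs of the same mice were passaged and then put into 3D cultures under 7 conditions, which were hashtagged with barcoded antibodies and pooled into 1 matrix per mouse. RNA-seq libraries came from HFSCs of telogen skin (postnatal day 55) in 4 groups of 2 libraries, wild-type or Rxra cKO, each in FBS or in atRA+PKCi. FBS is medium with serum. The atRA+PKCi medium holds all-trans retinoic acid and a protein kinase C inhibitor in a serum-free base with B-27, so the media differed in serum as well as in atRA and PKCi. The Rxra cKO lines carried floxed Rxra, a retinoid X receptor gene, with an inducible Cre driven by Sox9 and a YFP reporter, while the labels name no allele for the wild-type lines. HFSC lines of both genotypes had been established on inactivated feeder cells, so that a line, and not skin, was sampled in culture.

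Keratins build filaments from pairs of 1 type I and 1 type II chain. In the hair bulb, dividing matrix cells around the dermal papilla leave the cell cycle, move upward and become the cortex and cuticle of the hair shaft, while neighbors form the medulla and the inner root sheath. Hair keratins differ from epidermal keratins in their high content of cysteine, through which they are cross-linked to the keratin-associated proteins (Krtap genes) as the cells harden. Krt35 is known as a keratin of the matrix and early cortex, Krt31, Krt33a, Krt33b and Krt34 as type I keratins of the cortex, and Krt81, Krt83 and Krt86 as the type II keratins that accompany them. Krt36 is a further type I hair keratin.

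The 9 genes lie in the 2 keratin gene clusters of the mouse. On chromosome 11 the 6 type I members span 94.4 kb (100011195 to 100105626, GRCm38), all on the minus strand in the order Krt33a, Krt33b, Krt34, Krt31, Krt35 and Krt36, with Krt32 between Krt31 and Krt35. On chromosome 15 the 3 type II members span 32.5 kb (101459061 to 101491512), with Krt86 on the plus strand between Krt81 and Krt83 on the minus strand. Neighboring members are close copies, and reads could be split between them. Of the 31-base words of each transcript set, 50% in Krt86, 44.6% in Krt81, 42.0% in Krt34, 38.9% in Krt31, 37.4% in Krt83, 36.4% in Krt33b and 28.9% in Krt33a also occurred in another gene, most of them in another member. For Krt35 the share was 5.77% and for Krt36 1.77%. In the last 500 bases of the transcripts, where the single-cell method reads, no member exceeded 14.3%.

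Upstream sequences are shown for the 4 members with a RefSeq promoter window, since 3 of them (Krt31, Krt34 and Krt33b) are adjacent copies and Krt36 stood apart from them in the data. Krt33a, Krt35, Krt81, Krt83 and Krt86 had no entry. Each run holds the 250 bases before the annotated start, 5′ to 3′ on the minus strand of chromosome 11 in GRCm38.p6, at chr11:100050552-100050801 for Krt31, chr11:100041555-100041804 for Krt34, chr11:100029869-100030118 for Krt33b and chr11:100105627-100105876 for Krt36. Capitals mark every match, on either strand, to TATAAA (the TATA box), CTTTGA or CTTTGT (forms of the LEF/TCF element), TTTATNG (a form of the Hoxc13 element), AGGTCA (the nuclear receptor half-element) and CACGCA (which holds the core of the Foxn1 element).
Krt31: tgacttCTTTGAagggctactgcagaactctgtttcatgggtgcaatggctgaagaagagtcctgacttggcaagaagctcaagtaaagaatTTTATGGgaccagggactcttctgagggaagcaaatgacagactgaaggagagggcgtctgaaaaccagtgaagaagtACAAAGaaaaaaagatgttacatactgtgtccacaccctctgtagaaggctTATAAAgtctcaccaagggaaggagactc
Krt34: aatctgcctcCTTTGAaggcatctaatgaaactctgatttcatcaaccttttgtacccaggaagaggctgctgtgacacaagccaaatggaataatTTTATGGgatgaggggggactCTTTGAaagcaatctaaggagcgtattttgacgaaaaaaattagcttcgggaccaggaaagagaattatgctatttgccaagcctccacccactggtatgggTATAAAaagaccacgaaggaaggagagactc
Krt33b: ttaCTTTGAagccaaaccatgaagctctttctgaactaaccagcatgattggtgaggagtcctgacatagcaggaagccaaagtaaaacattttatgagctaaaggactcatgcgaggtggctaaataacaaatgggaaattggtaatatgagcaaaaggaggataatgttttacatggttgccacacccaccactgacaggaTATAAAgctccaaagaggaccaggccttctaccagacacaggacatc
Krt36: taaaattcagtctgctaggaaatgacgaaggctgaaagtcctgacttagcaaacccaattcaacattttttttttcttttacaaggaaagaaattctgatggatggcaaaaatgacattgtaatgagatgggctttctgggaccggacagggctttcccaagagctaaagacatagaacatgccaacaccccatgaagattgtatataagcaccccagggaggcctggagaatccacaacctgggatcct
Krt31, Krt34 and Krt33b each held TATAAA in the direction of the gene, at 29, 31 and 47 bases before the start, and CTTTGA at 244, 240 and 247 bases. Krt34 held a further CTTTGA at 133 bases. TTTATNG was present in Krt31 (158 bases) and Krt34 (154 bases), in both as TTTATGG, and CTTTGT was present in Krt31 alone, on the opposite strand. Krt36 had no match to the letters of the 6 motifs in this window, and none of the 4 windows held AGGTCA or CACGCA. Only these exact letters were searched, so other forms of the elements were not marked. Krt36 holds the letters tatataag, for example, so the lack of TATAAA does not show that it lacks a TATA box. Over all 32851 RefSeq windows of the same length, TATAAA occurred in 12.4%, CTTTGA in 13.8%, CTTTGT in 16.5%, TTTATNG in 9.81%, AGGTCA in 14.0% and CACGCA in 6.87%. These matches describe letters and were not tested as binding sites.

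In the skin matrices, 14458 and 13915 barcodes of mice 1 and 2 passed the filters, with medians of 8869 and 10594 unique molecules (UMIs) per cell, and 62 barcodes occurred in both matrices. After removal of called doublets, cells were clustered on genes other than the members. A cluster of 1732 cells in mouse 1 (12.7%) and 1157 in mouse 2 (8.68%) had the hair matrix markers as its highest-scoring list. It is called hair matrix- and cortex-like, the name fixed for clusters led by the hair matrix or the hair shaft cortex markers. Its leading genes besides members were Dapl1, Krtap7-1, Mt4, Gm49425, Shh, Dsg4 and S100a3. Levels are given per mouse as CPM, the UMIs of a gene divided by all UMIs of the pooled cells and scaled by 1e+06, in the order mouse 1 and mouse 2. The method counts molecules at their 3′ ends, so transcript length does not enter these levels. With 2 mice and no treated group, in vivo values are descriptions with no test, and intervals (exact Poisson for levels, Clopper-Pearson for shares, 95%) cover counting error only. The limit given for a count of 0 is 3 counts.

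Krt35 dominated the hair shaft keratins of anagen skin. The matrix- and cortex-like cells held 22862 of 26400 Krt35 UMIs in mouse 1 (86.6%) and 10625 of 12907 in mouse 2 (82.3%). Its level in them was 1144 and 689 CPM, out of 1245 and 791 CPM for the 9 members together. Krt86, the leading type II member, stood at 55 and 35 CPM. Krt31 stood at 14.9 and 23.0 CPM, Krt83 at 11.4 and 20.8 CPM, and Krt33a at 5.71 and 14.3 CPM. Krt36 stood at 6.76 and 4.28 CPM and Krt81 at 6.46 and 3.50 CPM. The first places of Krt35 and Krt86 were the same in both mice, while the ranges of the 2 mice overlapped between Krt31 and Krt83, Krt83 and Krt33a, Krt33a and Krt36, and Krt36 and Krt81. Krt33b had 0 UMIs in the cells of mouse 1 and 8 in those of mouse 2, and Krt34 had 0 in both, which allows up to 3 UMIs per mouse.

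The number of cells with a UMI was not in proportion to these levels. Krt35 was detected in 54.3 and 46.2% of the matrix- and cortex-like cells and Krt86 in 28.2 and 22.9%. Krt83 was detected in 7.33 and 4.58% and Krt81 in 6.64 and 4.15%, although Krt81 had the lower level. Krt31 was detected in only 1.15 and 0.778% of cells (20 and 9 cells) and Krt33a in 1.1 and 1.04% (19 and 12 cells). The highest number of UMIs in a single cell was 291 and 373 for Krt35, 82 and 226 for Krt31, and 3 and 5 for Krt81. Krt31 and Krt33a were therefore carried by few cells with many molecules and Krt81 by more cells with few.

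To place the members between matrix and cortex, the cells of the cluster were ordered in each mouse by diffusion pseudotime on genes other than the members and split into 20 bins of equal cell number. The axis of the order and its direction were picked by the mean of the listed cortex markers. The order ran from proliferating to differentiated cells in both mice. Mki67, a gene of dividing cells, stood at 463 and 564 CPM in bins 1 to 10 and at 28.0 and 50.4 CPM in bin 20. Hoxc13, a transcription factor that drives hair keratin genes, stood at 159.6 and 156 CPM in bins 1 to 10 and at 640.2 and 642 CPM in bin 20. Dsg4, the desmoglein of the hair shaft, stood at 4.32 and 5.76 CPM and then at 206 and 260.2 CPM. Onset was defined as the position, in percent of ordered cells, of the first bin in which a member reached 10% of its highest bin, for members with at least 50 CPM in that bin.

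**Figure D1:**
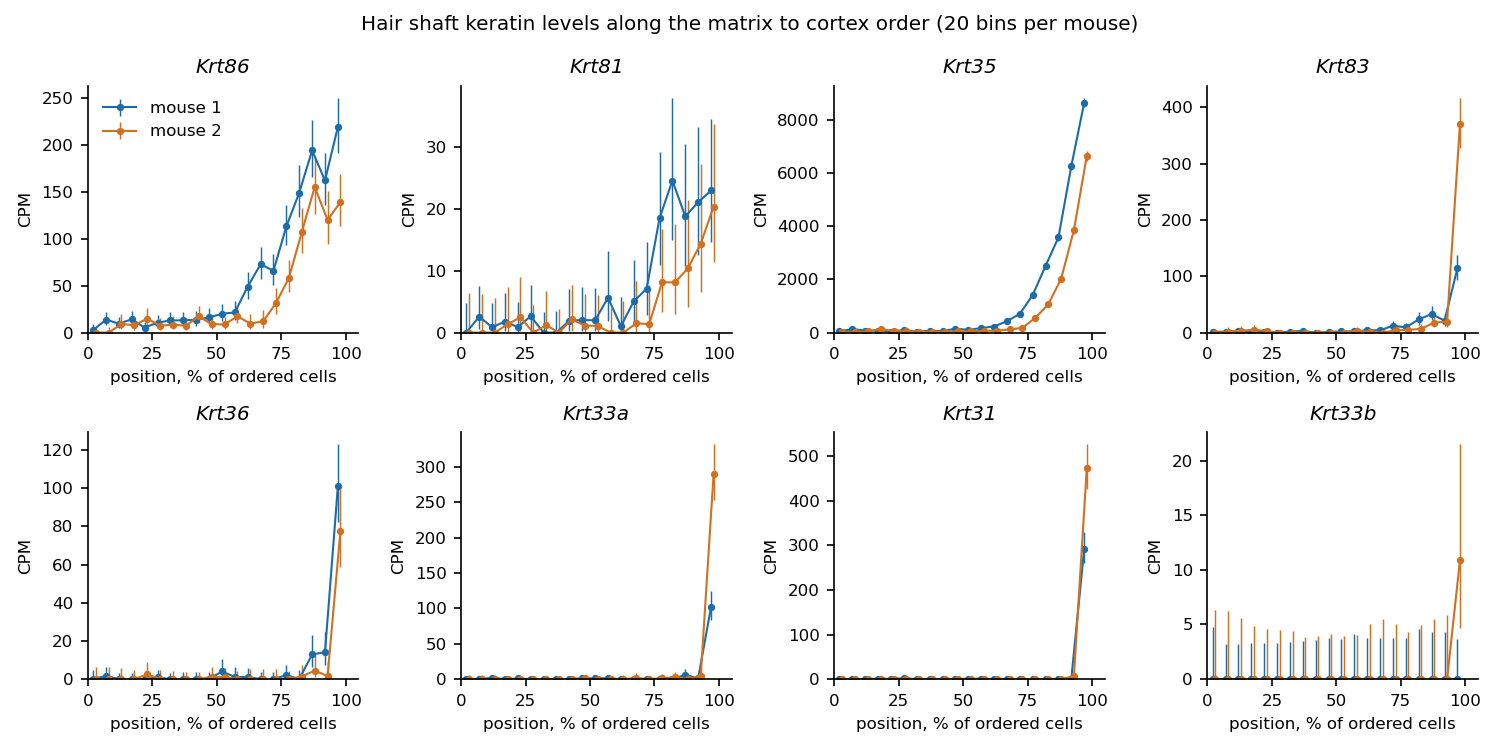
Levels of 8 hair shaft keratins (CPM, linear axes with separate scales) against position along the matrix to cortex order in 20 bins per mouse, for mouse 1 (blue) and mouse 2 (orange), with bars for exact 95% Poisson intervals. Krt86, Krt81 and Krt35 climb over several bins, whereas Krt33a and Krt31 stand near 0 up to bin 19 and reach 102 and 290.2 CPM (Krt33a) and 293 and 474 CPM (Krt31) in bin 20.

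Krt86 came first. Its onset lay at 60 and 40% of the ordered cells, and it stood at 11.4 and 8.70 CPM in bins 1 to 10, at 46.3 and 15.6 CPM in bins 11 to 15 and at 150.3 and 103 CPM in bins 16 to 18. In bin 20 it stood at 219 and 139 CPM, and in mouse 2 its highest bin was bin 18 with 155 CPM. Krt81, which shares 39.3% of its 31-base words with Krt86, had a like course at lower levels, from 1.31 and 0.896 CPM in bins 1 to 10 to 20.5 and 8.81 CPM in bins 16 to 18 and 23.0 and 20.4 CPM in bin 20. No bin of Krt81 reached 50 CPM, so it has no onset.

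Krt35 had a later onset, at 75 and 80%, relative to a far higher peak. The onsets thus do not show that Krt86 was expressed before Krt35. In bins 1 to 10 Krt86 was found in 9.89 and 8.45% of cells and Krt35 in 32.9 and 26.6%. Krt35 stood there at 77.7 and 46.4 CPM, above Krt86, and at 329 and 92.7 CPM in bins 11 to 15. It then reached 2450.3 and 1149 CPM in bins 16 to 18, 6264 and 3859 CPM in bin 19, and 8646 (95% interval 8465 to 8831) and 6642 (6457 to 6831) CPM in bin 20. Bin 20 held 37.8 and 45.9% of its UMIs in the lineage. In both mice the level of Krt35 was therefore already high in several bins that held almost no Krt31.

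The place of Krt83 depended on the mouse. Its onset was 70% in mouse 1, before that of Krt35, and 95% in mouse 2, after it. Its level was 21.3 and 9.25 CPM in bins 16 to 18, 21.1 and 19.2 CPM in bin 19, and 114 and 371 CPM in bin 20. The onset of Krt36 was 85 and 95%, after that of Krt35 in both mice. It stood at 4.93 and 1.76 CPM in bins 16 to 18, at 14.1 and 1.60 CPM in bin 19 and at 101 and 77.7 CPM in bin 20. Bin 20 held 74.8 and 86.4% of the lineage UMIs of Krt36 and 50.2 and 84.7% of those of Krt83.

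Krt31 and Krt33a had their onset at 95% in both mice, in the same bin as Krt36 and Krt83 in mouse 2. With the first principal component as the order, the onset of Krt31 was 75 and 85% and that of Krt36 was 90 and 90%, so that Krt36 then came after Krt31 in both mice. Krt31 had 0 UMIs in bins 16 to 18, stood at 1.17 and 6.40 CPM in bin 19, and reached 293 (261 to 329) and 474 (426 to 527) CPM in bin 20, which held 98.3% of its lineage UMIs in each mouse. Krt33a stood at 1.17 and 4.80 CPM in bin 19 and at 102 (83.2 to 124) and 290.2 (253 to 332) CPM in bin 20, which held 89.5 and 96.4% of its UMIs. Krt33b was seen only in bin 20 of mouse 2, at 10.9 CPM. Krt34 had 0 UMIs in bin 20. The onset of Krt31 lay 20 and 15 percentage points after that of Krt35.

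Bin 20 held 86 and 57 cells, and the values of the late members in it rested on very few of them. In mouse 2, 1 cell with 26558 UMIs at the end of the order held 226 of 354 Krt31 UMIs (63.8%), 193 of 221 for Krt33a (87.3%), 234 of 321 for Krt83 (72.9%), 27 of 66 for Krt36 (40.9%) and 7 of 8 for Krt33b. Its mitochondrial share was 4.46%. The top cell of mouse 1, with 20808 UMIs, held 82 of 298 Krt31 UMIs (27.5%) and 27 of 114 for Krt33a (23.7%). Without these 2 cells, an alternative added after the data were seen, Krt31 in bin 20 was 212 and 171 CPM and Krt33a was 75.5 and 28.1 CPM. Krt83 was then 70.5 and 53.3 CPM and Krt36 87.6 and 42.1 CPM. Krt35 (8745 and 6753 CPM) and Krt86 (217 and 138 CPM) moved little. The lead of mouse 2 over mouse 1 in Krt31, Krt33a and Krt83 was thus not present without the top cells. The onset of Krt31 stayed at 95%, that of Krt83 in mouse 2 moved from 95 to 80%, and Krt33a and Krt36 in mouse 2 no longer reached 50 CPM.

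**Figure D2:**
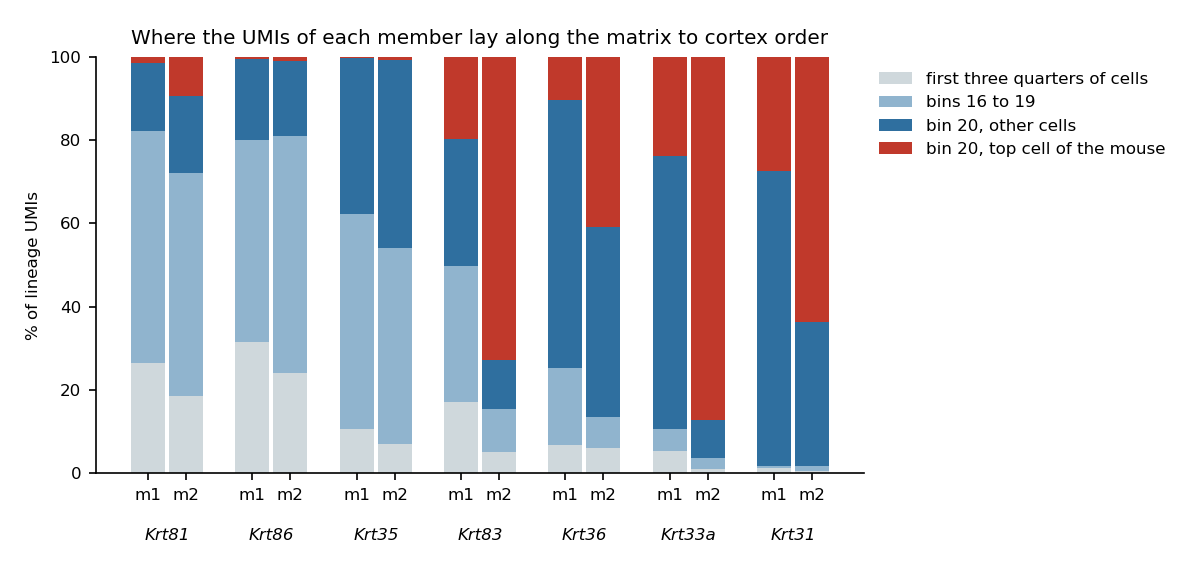
Share of the lineage UMIs of 7 members (y axis, %) by place along the matrix to cortex order, for mouse 1 (m1) and mouse 2 (m2), with bins 1 to 15 in grey, bins 16 to 19 in light blue, the other cells of bin 20 in dark blue and the top cell of each mouse in red. Bin 20 holds 17.8 and 27.8% of Krt81, 19.9 and 18.9% of Krt86 and 98.3% of Krt31 in each mouse, and in mouse 2 the top cell holds 87.3% of Krt33a and 63.8% of Krt31.

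Cells with Krt31 more often held the other late members, whereas Krt35 was in most cells with or without Krt31. Of the cells in bins 16 to 20 with a Krt31 UMI (16 and 7 cells), 100 and 85.7% also had Krt35, as did 96.9 and 90.7% of the cells without Krt31. Krt33a was present in 43.8 and 100% of the Krt31 cells and in 1.45 and 1.07% of the others. Krt36 was present in 62.5 and 42.9% against 8.70 and 6.07%, and Krt83 in 68.8 and 71.4% against 19.1 and 12.1%. Krt81 was present in 25 and 14.3% against 18.8 and 13.2%. Cells with Krt31 were also deeper, with medians of 15294 and 18587 UMIs against 10135 and 11894, and the part of depth in these shares was not tested.

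Other hair genes fixed as lists set these courses in context. Only the members were left out of the ordering, and its direction was picked by cortex markers that include Krtap8-1, Krtap11-1, Mt4 and Psors1c2. The rise of those genes toward bin 20 was thus built into the order and is no support for it. Among the 6 other hair keratins, Krt87, a type II keratin beside Krt81, stood at 1.5 and 1.79 CPM in bins 1 to 10 and at 54 and 196 CPM in bin 20. Krt32, a type I keratin of the cuticle, did not exceed 12 CPM in any of these spans, and Krt39, Krt40, Krt82 and Krt84 did not exceed 3.00 CPM. The 57 Krtap genes together stood at 25.7 and 20.2 CPM in bins 1 to 10 and at 2383 and 1512 CPM in bin 20, where 3 of them (Krtap8-1, Krtap7-1 and Krtap11-1) passed 50 CPM. Among regulators, Foxn1 stood at 4.60 and 5.50 CPM in bins 1 to 10 and at 73.0 and 69.5 CPM in bin 20, and Ovol1 at 49.8 and 50.9 and then 189 and 169 CPM. Lef1, the nuclear partner of beta-catenin, was already at 812 and 1091 CPM in bins 1 to 10 and stood at 957 and 1849 CPM in bin 20, while Shh was at 36.2 and 57.3 and then 1.00 and 1.36 CPM. Among structural proteins, S100a3 stood at 33.0 and 14.6 CPM and then at 1754 and 523 CPM, Mt4 at 71.6 and 50.8 and then 2074 and 1587 CPM, and Psors1c2 at 0.0939 and 0.256 and then 39.0 and 34.1 CPM. Krt25, a keratin of the inner root sheath, went the other way, with 619 and 475 CPM in bins 1 to 10 and 126 and 104 CPM in bin 20.

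Over 27 of the 31 clusters, those with at least 50 cells in each mouse, the genes whose levels were most like the mean of the members, Krtap genes being ranked apart, were Gm49425, Mt4, S100a3, Dapl1, Rexo2, Wfdc8, Mt2, Elmod1, Cldn10 and Sox21. Their Pearson correlations over clusters, on log2(CPM + 1) and taking the lower of the 2 mice, ran from 0.825 for Gm49425 and 0.731 for Mt4 to 0.586 for Sox21, among 7857 genes compared. Of 2 Krtap genes that could be compared, Krtap8-1 reached 0.631, which lies between Dapl1 and Rexo2. These correlations describe clusters that share libraries and carry no test.

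Outside the matrix- and cortex-like cells Krt35 and Krt86 were next highest in the medulla-like cluster, where Krt35 stood at 81.8 (74.8 to 89.2) and 53.0 (46.9 to 59.6) CPM and Krt86 at 10.1 and 9.28 CPM. In the other named classes Krt35 lay between 8.31 and 71.2 CPM, and a Krt35 UMI was found in 18.8 and 13.2% of fibroblast-like cells (median 8899 and 12014 UMIs), which should lack the gene. In the remaining cells outside the lineage it was found in 17.2 and 12.6% (median 7744 and 8319 UMIs). The share in fibroblast-like cells is used here as a reference, and the source of these UMIs was not tested. The shares in medulla-like cells, 25.6 and 21.2% (median 9309.5 and 12083 UMIs), and in matrix- and cortex-like cells, 54.3 and 46.2%, lay above it. Single cells held up to 17 and 27 Krt35 UMIs among the fibroblast-like cells and up to 146 and 140 among the remaining cells. The reference share thus does not describe all cells outside the lineage. A Krt86 UMI was found in 0.298 and 0.119% of fibroblast-like cells.

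**Figure D3:**
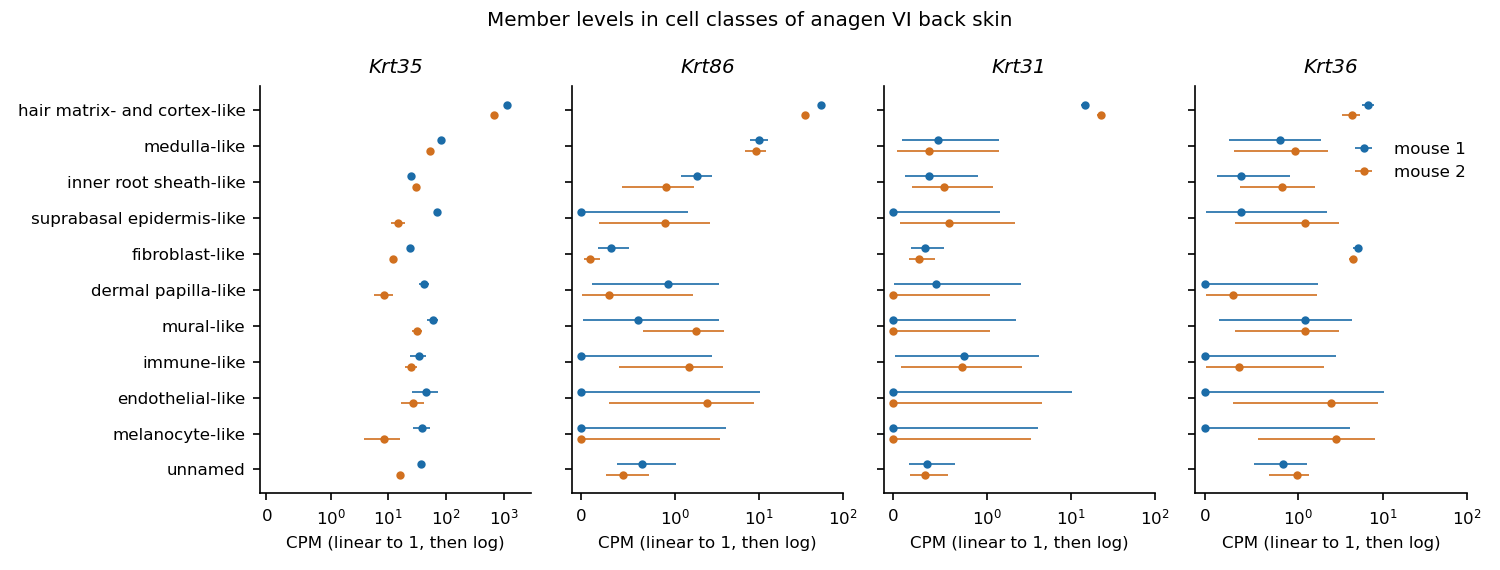
Levels of Krt35, Krt86, Krt31 and Krt36 (CPM, x axis linear up to 1 and logarithmic above it) in 11 cell classes of anagen back skin, for mouse 1 (blue) and mouse 2 (orange), with bars for exact 95% Poisson intervals. Krt35, Krt86 and Krt31 are highest in the matrix- and cortex-like class, while Krt36 stands as high in fibroblast-like cells (5.11 and 4.48 CPM) as in that class (6.76 and 4.28 CPM).

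Most Krt36 UMIs lay outside the matrix- and cortex-like cells, whereas Krt31, Krt33a, Krt35, Krt81, Krt83 and Krt86 had at least 66.6% of theirs inside in each mouse. Krt33b and Krt34 had too few UMIs to place. Only 135 of 429 (31.5%) and 66 of 419 (15.8%) were in matrix- and cortex-like cells, against 258 (60.1%) and 286 (68.3%) in fibroblast-like cells. The fibroblast-like level was 5.11 (4.51 to 5.78) and 4.48 (3.98 to 5.03) CPM, and 4.45 and 5.12% of these cells had a UMI. In the remaining cells outside the lineage the level was 0.641 (0.449 to 0.887) and 0.967 (0.749 to 1.23) CPM, with 0.552 and 0.867% of cells. The shares of Krt36 in these groups of cells were thus apart by more than counting error. Bin 20 of the matrix to cortex order held Krt36 at 101 and 77.7 CPM. Among fibroblast-like clusters, cluster 5 was highest, at 9.08 CPM over 2853 cells (mouse 1) and 18.8 CPM over 76 cells (mouse 2). Fibroblast-like cluster 6 stood at 4.14 CPM over 215 cells and 9.16 CPM over 2022 cells. Each of these clusters came mostly from 1 mouse. No fibroblast-like cell had more than 2 Krt36 UMIs in mouse 1 or 4 in mouse 2, whereas matrix- and cortex-like cells had up to 14 and 27. These fibroblast-like cells were present although CD140a+ cells had been sorted out.

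In the RNA-seq libraries of cultured HFSCs, grown in FBS or atRA+PKCi, all hair shaft keratins were near the limit of detection. The 8 RNA-seq libraries held 25150265 to 35879777 estimated counts, and the 9 members together reached 6 to 96 counts in a library. Their summed level was 0.219 and 0.463 CPM in wild-type FBS, 2.5 and 3.04 CPM in wild-type atRA+PKCi, 0.540 and 0.713 CPM in Rxra cKO FBS, and 0.917 and 1.2 CPM in Rxra cKO atRA+PKCi. The wild-type atRA+PKCi libraries were the highest and did not overlap any other group. Krt35, the leading member in skin, had 1 count in 1 library of each genotype in atRA+PKCi and 0 in the other 6. Krt81 had 0 in all 8 libraries, and Krt33b, Krt34 and Krt86 did not exceed 5.76 counts in any. Only Krt33a, Krt36 and Krt83 passed the filter on low counts. A member can pass through the group where it is high, so counts over these 3 are a description. In these bulk libraries more cells with a transcript and more transcript per cell cannot be told apart.

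Of genes that mark the cells, Krt14 stood at 5733 to 22351 CPM and Sox9 at 70.0 to 173 CPM, while Cd34 stood at 0.386 to 2.91 CPM, Lgr5 at 0 to 0.186 CPM and Lhx2 at 0 to 0.0965 CPM. The targeted gene Rxra stood at 149 and 122 CPM in wild-type FBS, 97.2 and 95.7 CPM in Rxra cKO FBS, 147 and 143 CPM in wild-type atRA+PKCi and 148 and 145 CPM in Rxra cKO atRA+PKCi. The gene-level count pools reads of all exons, so it does not check the deletion, and in atRA+PKCi it did not separate the genotypes (log2 fold change 0.01, adjusted p = 0.927 by edgeR's quasi-likelihood test).

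Medium was compared first, in wild-type HFSCs. Krt36 had 4 and 10 counts (0.146 and 0.386 CPM) in FBS and 43 and 53 counts (1.38 and 1.68 CPM) in atRA+PKCi. The groups did not overlap, and Krt36 rose 5.72-fold (log2 fold change 2.52 ± 0.46 SE, adjusted p = 0.00167 by edgeR's quasi-likelihood test). Krt33a had 2 and 0 counts in FBS and 18.2 and 22 counts in atRA+PKCi, and it rose 17-fold over the group (counting interval 4.41 to 145, adjusted p = 0.00292, edgeR). Krt83 had 0 counts in both FBS libraries and 3.84 and 16 counts in atRA+PKCi, at least 5.62-fold higher against a floor of 3 counts over the FBS group (adjusted p = 0.0412, edgeR). The call of Krt83 was lost without the first or second wild-type FBS library (adjusted p = 0.112 and 0.107), the second wild-type atRA+PKCi library (0.184) or the first or second Rxra cKO FBS library (0.0689 and 0.0674). Those of Krt36 and Krt33a held in all 8 such fits, with a log2 fold change of 3.35 for Krt36 and 3.05 for Krt33a without the second wild-type FBS library. Krt31, which did not pass the filter, had 0 counts in FBS and 10.8 and 4.99 counts in atRA+PKCi, at least 4.47-fold higher, and was called when no filter was set. All 3 members tested were thus called higher, where 27.2% of all 15965 genes tested were called higher. Since a member could pass the filter through atRA+PKCi, where it was high, this count is a description and shows no enrichment.

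Per kilobase of exon, the wild-type atRA+PKCi level was 0.916 ± 0.127 CPM per kb for Krt36, 0.309 ± 0.0411 for Krt33a, 0.172 ± 0.145 for Krt83 and 0.162 ± 0.0872 for Krt31 (SD, n = 2). Krt36 was the leading member in every group on this scale. Its order against Krt35 was the opposite of that in the matrix- and cortex-like cells of skin, where Krt35 led by far. The 6 listed fibroblast genes summed to 11.6 and 7.65 CPM in wild-type FBS and to 1.32 and 4.36 CPM in wild-type atRA+PKCi, and Lum was at 0 in all 8 libraries. Pdgfra (5.44 and 4.91 CPM in FBS, 0.707 and 0.664 CPM in atRA+PKCi) and Dcn were lower in both atRA+PKCi libraries, while Col1a1, Col1a2 and Col3a1 overlapped between the media. Col1a1, for example, stood at 3.36 and 0.889 CPM in FBS and at 0.322 and 1.87 CPM in atRA+PKCi. The part of these cells in the rise was not tested.

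**Figure D4:**
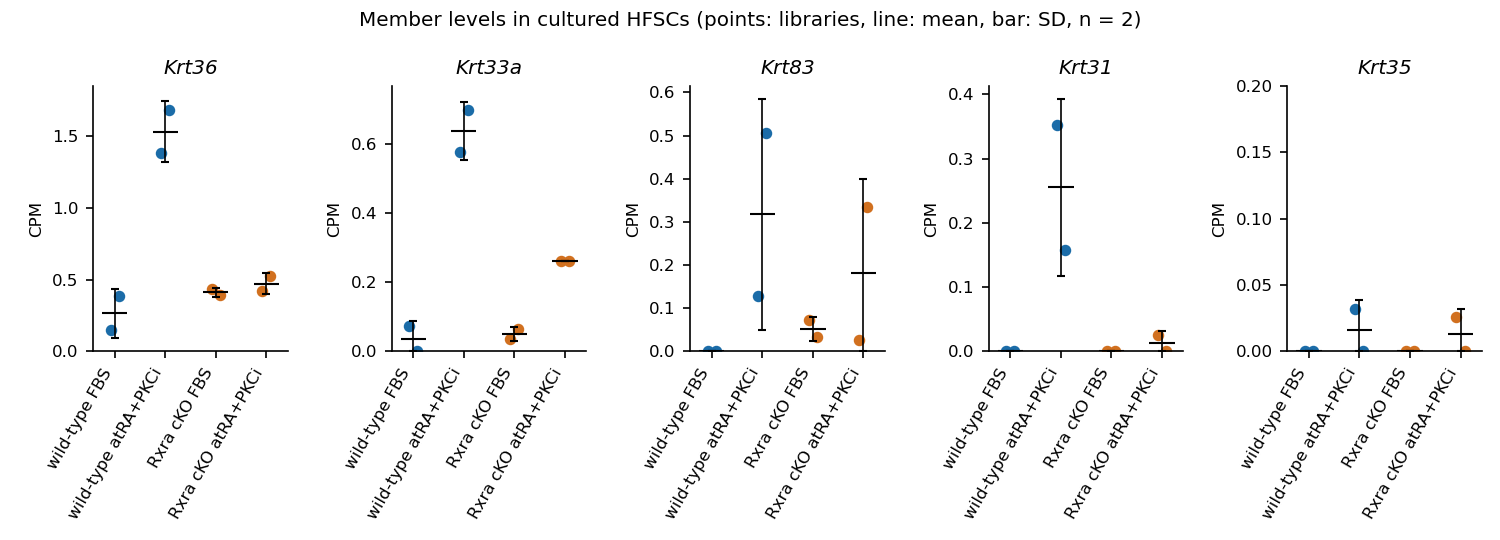
Levels of Krt36, Krt33a, Krt83, Krt31 and Krt35 (CPM, linear axes from 0 with separate scales) in the 8 RNA-seq libraries by group, with points for libraries, lines for means and bars for the SD (n = 2, cut at 0). Both wild-type atRA+PKCi libraries stand above all others for Krt36 (1.38 and 1.68 CPM), Krt33a and Krt31, whereas Krt83 overlaps between genotypes and Krt35 is at or near 0 throughout.

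In Rxra cKO HFSCs the same change of medium gave smaller differences, none of which passed the test. Krt36 had 12 and 12 counts in FBS and 16 and 14 in atRA+PKCi (log2 fold change 0.19 ± 0.46 SE, adjusted p = 0.778, edgeR), and the groups overlapped on the CPM scale. Krt33a had 1 and 2 counts in FBS and 10 and 7 in atRA+PKCi, which is 5.13 times as many per count sequenced (interval for counting error 1.48 to 27.3, adjusted p = 0.0517, edgeR). Krt83 had 2 and 1 counts and then 1.24 and 8.69 counts (ratio 3.02, counting interval 0.777 to 17.1, adjusted p = 0.410, edgeR). Krt31 had 1 count in 1 of the 4 Rxra cKO libraries and 0 in the others. By edgeR 0 of 3 members were called, where 43.0% of all genes were, 1 (Krt33a) had an unadjusted p under 0.05, and DESeq2 also called 0. Krt33a passed without the first or second wild-type FBS library (adjusted p = 0.0361 and 0.0356).

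Genotype was compared within each medium. In FBS, 0 of 3 members were called by edgeR, against 42.8% of all genes, 0 had an unadjusted p under 0.05, and DESeq2 called 0. Krt36 differed there by a log2 fold change of 0.63 ± 0.51 SE. In atRA+PKCi, Krt36 was lower in Rxra cKO, with 0.419 and 0.522 CPM against 1.38 and 1.68 CPM (log2 fold change -1.70 ± 0.42 SE, adjusted p = 0.0103, edgeR). DESeq2 gave it an adjusted p of 0.0640, and the call was lost without the first Rxra cKO or the second wild-type atRA+PKCi library (adjusted p = 0.0928 and 0.0567). Krt33a (log2 fold change -1.27 ± 0.56 SE, adjusted p = 0.102, edgeR) and Krt83 (-0.94 ± 1.06 SE, adjusted p = 0.510) did not pass, although both wild-type libraries of Krt33a lay above both Rxra cKO libraries. Thus 1 of 3 members was called lower, against 20.2% of all genes.

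The difference of the medium effect between genotypes was tested as an interaction. For Krt36 the log2 change with atRA+PKCi was smaller in Rxra cKO by 2.33 (interaction -2.33 ± 0.66 SE, adjusted p = 0.0328, edgeR), and it was the 1 member of 3 called, where 11.3% of all genes were called lower. DESeq2 gave an adjusted p of 0.131, and the call held in only 1 of the 8 fits that left out 1 library, that without the second wild-type FBS library (adjusted p = 0.0117), while the other 7 gave 0.0601 to 0.122. For Krt33a (-1.68 ± 1.35 SE, adjusted p = 0.414) and Krt83 (-4.68 ± 3.09 SE, adjusted p = 0.323) no difference between the genotypes was shown by edgeR, and the counts are too low to show that there was none.

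Other hair genes moved in both directions in culture. Of the 6 other hair keratins, Krt32 had 5 and 2 counts in wild-type FBS and 194 and 203 counts in wild-type atRA+PKCi, more than any member, and rose there (log2 fold change 5.55, adjusted p = 1.63e-06, edgeR) and in Rxra cKO (2.75, adjusted p = 9.26e-05). Krt84 fell in wild-type atRA+PKCi by 3.35 on the log2 scale (adjusted p = 0.000842, edgeR), from 38 and 25 counts to 3 and 4. Of 11 hair shaft regulators tested in wild-type HFSCs, 2 rose and 7 fell (median log2 fold change -1.02 against 0.03 for all genes), where 53.9% of all genes were called in either direction. Those that fell included Prdm1 (-5.18), Foxn1 (-3.72), Ovol1 (-2.39) and Hoxc13 (-1.02), all transcription factors of hair or epidermal differentiation. Of 7 structural and cross-linking proteins tested, Padi1 (3.26) and S100a3 (1.72) rose and Tgm3 (-8.12), Dsg4 (-5.02) and Tchh (-2.63) fell. None of the 57 Krtap genes passed the filter, and 6 had a count. In Rxra cKO HFSCs, 3 regulators rose and 3 fell, and 2 structural genes rose and 3 fell, where 43.0% of all genes were called. Between genotypes in atRA+PKCi, 8 of 11 regulators were higher and 2 lower in Rxra cKO (median log2 fold change 0.89 against 0.00 for all genes), and 2 of 7 structural genes were higher and 4 lower, where 43.2% of all genes were called. In FBS, 1 regulator was higher and 3 lower, and 2 structural genes were higher and 3 lower, where 42.8% of all genes were called. Of 8 inner root sheath keratins, only Krt71 was tested, and it was called in Rxra cKO (log2 fold change 2.66) and not in wild-type HFSCs (0.70, adjusted p = 0.674, edgeR), with no difference between the genotypes shown by the interaction (adjusted p = 0.463). Among the epidermal keratins measured for scale, Krt15 rose in wild-type HFSCs with atRA+PKCi (log2 fold change 10.07) and Krt10 (-4.47), Krt1 (-4.91), Krt14 (-1.87) and Krt5 (-0.40) fell.

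In the hashtagged cultures, 300 singly tagged cells passed the filters and held 9031788 UMIs, of which 7 belonged to a member. Krt33a, Krt34 and Krt36 had 2 UMIs each and Krt83 had 1, while Krt31, Krt33b, Krt35, Krt81 and Krt86 had 0. The hashtag labels write only BMP, which was taken here to be BMP2 with BMP4 (BMP2/4). Rspo stands for R-spondin and RARi for an inhibitor of the retinoic acid receptors. By the paper, the cultures given Rspo, BMP2/4 or RARi also held atRA and PKCi. The BMP2/4 and B-27 cultures thus differed in atRA and PKCi as well. The 2 Krt36 UMIs were in 2 cells of the BMP2/4 culture of mouse 1 (0.541 CPM, interval 0.0655 to 1.95), and the 2 Krt34 UMIs in 1 cell of the Rspo+BMP2/4 culture of mouse 2. The Krt33a UMIs were in 1 cell each of BMP2/4 (mouse 2) and Rspo+BMP2/4 (mouse 1). The depth of the cultures differed widely, so a count of 0 allows up to 0.812 CPM in BMP2/4 of mouse 1 (113 cells) and up to 68.0 CPM in atRA+PKCi of mouse 2 (1 cell). FBS had 0 cells in both mice. Each of these limits lies under the 8646 and 6642 CPM that Krt35 reached in bin 20 in skin. Other members stood lower there, such as Krt31 at 14.9 and 23.0 CPM in the matrix- and cortex-like cells. The cultures with few cells therefore cannot show that such members were absent. The paper reported that its cultured HFSCs ended in a robust induction of hair shaft genes, and it analyzed many more cultured cells. The 300 cells kept here cannot decide on that result.

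No member passed the filter in the test of UMIs summed per mouse and condition, so 0 were called by edgeR in each of the 3 comparisons, and DESeq2, which tested 4 members, also called 0 with 0 at an unadjusted p under 0.05. Over all 6265 genes, edgeR called 5.71% between BMP2/4 and B-27, 0% between Rspo+BMP2/4 and BMP2/4, and 0% between Rspo+BMP2/4+RARi and Rspo+BMP2/4. In the same order, 1507, 44 and 232 genes had an unadjusted p under 0.05 by edgeR. DESeq2, run on 18611 genes, called 395, 0 and 0. Of the lists, 1 of 5 regulators (Prdm1), 1 of 5 structural genes (Tgm3) and 1 of 4 epidermal keratins (Krt10) were called lower in BMP2/4 than in B-27. That comparison cannot part BMP2/4 from atRA and PKCi. No other hair keratin, inner root sheath keratin or Krtap gene could be tested.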

How the data were processed

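Single-cell RNA-sequencing (10x Genomics 3′) of AnaVI skin and of hashtagged HFSC cultures and RNA-seq of HFSC cultures were analyzed. Files of the other assays (ATAC-seq, CUT&RUN) were not used here. The 9 members and all gene lists were chosen with earlier results of these data known, and 1 further member is not reported here. All members were named with their values, and the 10 genes most like their mean over in vivo clusters were named by correlation.

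UMI counts were made by the authors with Cell Ranger (7.0.0 in the matrix headers, 7.0.1 in the submitters' processing notes) on mm10 and deposited for called cells, with hashtag counts as further features and with no removal of ambient RNA or doublets. For RNA-seq, Salmon 1.4.0 was run by the authors on mm10, and its estimated counts were summed to genes and deposited as they were. A deposited table of normalized signal per gene and library was used only in alternatives. The number of per-sample columns left unused was 0.

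Barcodes with fewer than 500 genes, fewer than 1000 UMIs, or 10% or more of their UMIs from mitochondrial genes were removed. In vivo, Scrublet doublets (833 and 587, or 5.76 and 4.22%) were removed, and clustering (Leiden, resolution 0.6), marker scores and diffusion pseudotime were computed in scanpy 1.11.5 (Python 3.11.15, seed 11) without the members. Clusters were rebuilt here, and no annotation by the authors was used. For the cultures, HTODemux (Seurat 5.3.0) assigned hashtags (372 and 175 single of 449 and 208 barcodes, 222 and 78 kept), and UMIs were summed per mouse and condition with at least 5 cells.

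Estimated counts were rounded. The quasi-likelihood test of edgeR 4.0.16 (R 4.3.3) was used after filterByExpr and TMM scaling, with Benjamini-Hochberg adjustment over all genes. The 8 bulk libraries entered 1 model with a mean for each of 4 groups, and genes were called at an adjusted p under 0.05. Cell sums were called at 0.01 where the log2 fold change also exceeded 1 in size. Adjusted p-values in the text come from this test unless DESeq2 is named. The fits were tested on simulated data. With 2 libraries a group, p-values rest on 1 spread per gene, shared by the 4 groups and moderated over genes. The labels give the libraries of 1 mouse the same number in both media. After group means were subtracted, libraries of 1 mouse correlated over 15965 genes at 0.0668 (wild-type) and -0.0188 (Rxra cKO), and libraries of different mice with the same number at 0.0201 (FBS) and 0.000767 (atRA+PKCi). Pairing came from the labels. Alternatives were DESeq2 1.42.0, limma 3.58.1 on log2 of the normalized signal (pseudocount 1 or 0.5), no filter, other thresholds, the replicate block, each library left out, other cell filters, hashtag calls and resolutions, other onset thresholds, bin numbers and orderings, and thinning to 3000 UMIs.

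Where a group held 0 counts, 3 counts over that group were used to bound the fold from below. Positions and exonic lengths came from GENCODE M21 (GRCm38), and promoter windows from RefSeq (GRCm38.p6). Figures were drawn with matplotlib 3.10.9.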

Additional observations from a re-analysis of the deposited data

Results flagged for a closer look

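By the interaction test (edgeR, 2 libraries in each of 4 groups), 3924 of all 15965 genes were called in either direction. It covered 3 members and 2 other hair keratins. For 3 of these hair keratins the log2 change with atRA+PKCi differed between the genotypes. For Krt36, the only member among them, the change was lower in Rxra cKO than in wild-type HFSCs (-2.33, adjusted p = 0.0328), with 1.38 and 1.68 CPM in wild-type atRA+PKCi against 0.419 and 0.522 CPM in Rxra cKO atRA+PKCi. The call of Krt36 was lost with DESeq2 (adjusted p = 0.131), with limma at a pseudocount of 0.5 (0.0540), at a threshold of 0.01 and in 7 of the 8 fits that left out 1 library (0.0601 to 0.122). For Krt32, the keratin of the hair cuticle, the difference was -2.80 (adjusted p = 0.00316), with 6.22 and 6.43 CPM against 2.54 and 2.31 CPM. For Krt84 it was 3.36 (adjusted p = 0.00854), with 0.0962 and 0.127 CPM against 1.28 and 0.596 CPM. The cause of these differences was not tested. The number of libraries was too low to look for outlying samples within groups.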

How the results depend on the processing

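Each call made in bulk kept its direction under all alternatives run. Fitted changes that were not called turned with 1 library left out for Krt33a in FBS between genotypes (from 0.41 to -0.05 and -0.49 on the log2 scale), Krt83 in Rxra cKO atRA+PKCi versus FBS (from 1.60 to -0.87) and Krt83 in atRA+PKCi between genotypes (from -0.94 to 0.10 and 0.35). Under DESeq2 and under an adjusted p below 0.01 with an absolute log2 fold change over 1, the members called in atRA+PKCi between genotypes numbered 0 and those called by the interaction 0, against 1 each. With limma on the normalized signal at a pseudocount of 0.5, the interaction called 0. Leaving out 1 library gave 0 to 1 members in Rxra cKO atRA+PKCi versus FBS, 0 to 1 in atRA+PKCi between genotypes, 0 to 1 in the interaction and 2 to 4 in wild-type atRA+PKCi versus FBS. The replicate block changed no call, with 3 members called in wild-type atRA+PKCi versus FBS, 0 in Rxra cKO, 0 in FBS and 1 each in atRA+PKCi between genotypes and in the interaction (adjusted p of Krt36 there 0.0484). In the cultured cells every alternative left the members called at 0. Only DESeq2 and the fit with no filter tested any member there, 4 each. In the other settings no member could be called, so their agreement shows nothing about the members. In vivo, the mean onset of Krt31 lay 17.5 percentage points after that of Krt35, and 12.5 points at a threshold of 25% of the highest bin, 5.00 points at 50% and 12.5 points with the first principal component as the order. On the last, Krt36 (90 and 90%) came after Krt31 (75 and 85%), the onset of Krt86 was 10 and 20%, and after thinning it was 15 and 25%. The levels in the matrix- and cortex-like cells moved by less than the spread between the mice under 3 other cell filters or clusterings in all 24 values for the 8 members with UMIs and all 3 for the sum. The cause of these changes was not tested. Counts of at most 53 for a member in a bulk library, and fewer than 20 cells with Krt31 in each mouse after bin 15, limit what the late members can show.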
